A study of Mus musculus with 12 samples.

Results

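The values below concern the interaction of Srsf3 knockdown with PDGF-AA, which is the difference between the ligand's effect in cells with reduced Srsf3 and its effect in control cells. It was computed for each gene as the log2 fold change with ligand in shSrsf3 cells minus the log2 fold change with ligand in scramble cells. All 12 RNA-seq samples of the series entered it, and 15037 of the 51490 genes in the table passed a filter for low counts. The cells were iMEPM cells, an immortalized line of mouse embryonic palatal mesenchyme derived from a male Cdkn2a-/- embryo. All of them had been transduced with lentivirus, selected with puromycin and sorted for GFP, so that the controls also carry a vector. The 4 groups, with 3 samples each, were scramble -PDGF-AA (scramble shRNA, untreated), scramble +PDGF-AA (scramble shRNA, 10 ng/mL ligand for 1 hr), shSrsf3 -PDGF-AA (Srsf3 shRNA, untreated) and shSrsf3 +PDGF-AA (Srsf3 shRNA, the same dose and time). The study's methods describe a period in low serum before stimulation in general, without naming the RNA-seq cultures. Each shRNA is represented by 1 cell line and by a single hairpin, so a difference between the lines cannot be told apart from a difference between the shRNAs. The p-values measure the spread between samples of 1 line, which nothing in the labels ties to separate derivations of that line.

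PDGF-AA binds the receptor tyrosine kinase PDGFRα, which drives growth of the mesenchyme that forms the palate. The activated receptor signals through ERK, which raises immediate early genes, and through PI3K and Akt, which keep FoxO transcription factors out of the nucleus and so lower FoxO target genes. Srsf3 is an SR protein, an RNA-binding factor of splicing and mRNA export. The question put to the data was which ligand responses were smaller, similar or larger when Srsf3 was reduced.

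Srsf3 itself stood at 207, 199 and 212 CPM in untreated scramble cells and at 162, 164 and 161 CPM in untreated shSrsf3 cells, where CPM are counts scaled to library size by the TMM method. With ligand it stood at 221, 215 and 231 CPM in scramble and at 164, 161 and 170 CPM in shSrsf3 samples. The shSrsf3 samples were lower than every scramble sample, with a log2 difference of -0.34 without ligand (adjusted p = 7.95e-06 from edgeR's test) and -0.43 with ligand (adjusted p = 9.54e-07). The interaction of Srsf3 itself was -0.09 ± 0.05 (SE, adjusted p = 0.874). Library totals lay between 30958870 and 76123207, and the shSrsf3 +PDGF-AA samples had the lowest median of the 4 groups, 32209725. By the study's own summary of read mapping, the 3 samples with the lowest Salmon mapping rates were all scramble samples (-PDGF-AA replicates 1 and 2 and +PDGF-AA replicate 2). Scramble -PDGF-AA replicate 3 deviated most from its group mean (root mean square 0.25 on the log2 scale against 0.11 to 0.21 in the other samples). It was the only sample of its group not among those 3. Markers of palatal mesenchyme, led by Col1a1, Col1a2 and Vim, summed to 35200 to 38000 CPM in scramble and 31900 to 34300 CPM in shSrsf3 samples. Tbx22 of the palatal list had no count. The summed epithelial and blood lists stayed under 7.1 CPM, and Esrp1, Adgre1 and Cd3e of these had no count. Endothelial markers summed to 33.5 to 37.5 CPM in scramble and 19.9 to 24.1 CPM in shSrsf3 samples, neural markers to 29.4 to 32.7 and 22 to 27.2 CPM and skeletal muscle markers to 23.9 to 26.3 and 24 to 31.7 CPM. Their part in the interaction was not tested, and in bulk RNA fewer cells of a type and less RNA per cell cannot be told apart.

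Across the transcriptome the interaction was past an adjusted p of 0.05 for 2 genes (0.0133% of those tested) and past an unadjusted p of 0.05 for 833 genes (5.54%). Ch25h and Gm6741, a processed pseudogene, made up the former. To describe single responses, genes were first called ligand-responsive by the mean of the ligand effects in both lines, which weighs both lines alike. This choice is neutral to the interaction only where both lines spread alike. The median SD between samples (log2 scale, mean count of at least 50) was 0.0847 without and 0.0638 with ligand in scramble cells. In shSrsf3 cells it was 0.0525 and 0.0638. The mean ligand effect passed an adjusted p of 0.05 for 887 genes (5.9% of those tested), of which 450 rose and 437 fell. A responsive gene was then called blunted where its interaction had an unadjusted p of 0.05 or less and a sign opposite to the mean ligand effect, and enlarged where the signs were the same. It was called kept where the 95% interval of the interaction stayed within 0.5 times the mean ligand effect, and not resolved otherwise.

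By these definitions 165 responses were blunted, 14 enlarged and 6 kept, and 702 (79.1%) were not resolved. The blunted share was 18.6% of the responsive genes, against 3.93% of all tested genes whose interaction passed the same threshold with a sign opposite to their mean ligand effect. The enlarged share was 1.58%, against 1.61% of all tested genes with matching signs. Blunting was seen in both directions of response, for 92 of 450 genes that rose (20.4%) and 73 of 437 genes that fell (16.7%). The median log2 fold change of blunted genes that rose was 0.36 in scramble and 0.12 in shSrsf3 cells, and that of blunted genes that fell was -0.39 and -0.11. These medians describe the genes chosen and are no test. Over all 887 responsive genes the ligand effect was larger in size in scramble cells for 686 (77.3%), compared with 57.5% of the 14150 other genes. Of those other genes, 3.01% passed the same unadjusted threshold with opposite signs and 1.61% with matching signs. The part of the unequal spread of the lines in these shares was not tested. Among the 75 responsive genes with a mean count of at least 50 and a mean ligand effect of at least 0.5, 24 were blunted, 5 kept, 46 not resolved and 0 enlarged. With DESeq2 the interaction was past an adjusted p of 0.05 for 26 genes.

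**Figure D1:**
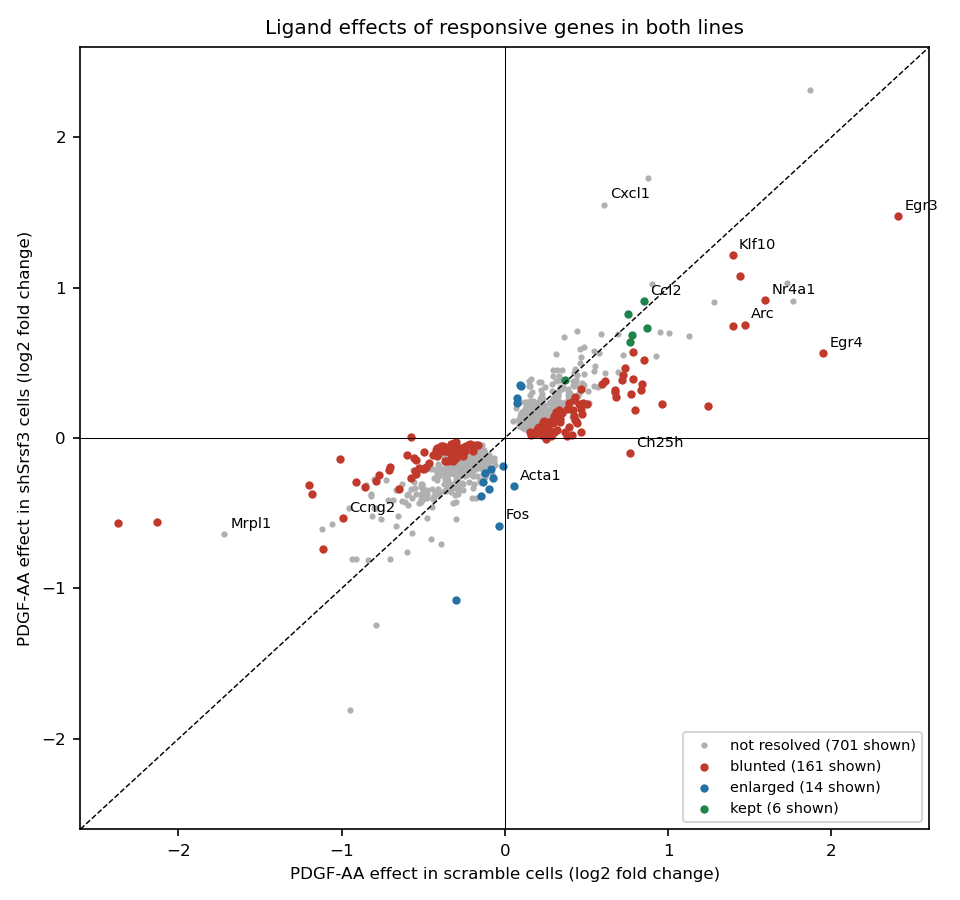
Log2 fold change with PDGF-AA in scramble cells (horizontal axis) and in shSrsf3 cells (vertical axis), 1 point per ligand-responsive gene, colored by class, with 5 genes beyond a log2 fold change of 3 in either line left out. The dashed line marks equal effects; by definition the 161 blunted genes shown lie off that line toward the horizontal axis, and the 6 kept genes lie along it.

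The number of blunted responses changed with the libraries used. Without scramble -PDGF-AA replicate 3 it was 389, with 27 enlarged, and without scramble +PDGF-AA replicate 2 it was 255. It fell to 96 without scramble +PDGF-AA replicate 3, to 102 and 109 without shSrsf3 -PDGF-AA replicates 2 and 3, and to 106 and 108 without shSrsf3 +PDGF-AA replicates 1 and 2. In the 9 samples that remain without the lowest mapping rates, where scramble -PDGF-AA is left with 1 sample whose spread is taken from the other groups, 315 of 1075 responses were blunted and 7 enlarged. Of the 165 blunted genes, 94 to 132 were called blunted again in the leave-one-out fits and 113 in the 9 samples. Where responsive genes were instead chosen in scramble cells alone (608 genes, 4.04%), 223 were blunted and 0 enlarged. Where they were chosen in shSrsf3 cells alone (85 genes, 0.565%), 22 were blunted and 8 enlarged. A choice in 1 line favors large estimates in that line, and the blunted count was above the enlarged count in each of the 3 choices. All 3 choices use the same 12 samples and the same interaction values, so their agreement is not independent support.

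Ch25h, which encodes cholesterol 25-hydroxylase, the enzyme that makes an oxysterol, rose with ligand in scramble cells and had no detectable response in shSrsf3 cells. The gene lies on chromosome 19 of GRCm39 at 34451178 to 34452564. Its level was 16.9, 17.7 and 16.5 CPM in scramble -PDGF-AA and 28.7, 28.7 and 29.6 CPM in scramble +PDGF-AA samples. The shSrsf3 samples had 21.9, 23.1 and 24.6 CPM without and 22.1, 22.5 and 20.1 CPM with ligand. The scramble groups did not overlap, the shSrsf3 groups did, and every shSrsf3 sample lay between the levels of the scramble groups. The log2 fold change with ligand was 0.77 ± 0.05 (SE) in scramble cells (adjusted p = 2.91e-06) and -0.10 ± 0.05 in shSrsf3 cells (adjusted p = 0.617). The interaction was -0.87 (95% interval -1.03 to -0.71, adjusted p = 3.27e-04), and it stayed between -0.91 and -0.82 in all 23 alternative fits. Of the 9 responsive sterol and oxysterol genes (37 tested), Ch25h was the blunted one and the other 8 were not resolved. The median interaction of the 37 genes was -0.04, with 28 negative. This list had 1 blunted of 9 responsive genes without scramble -PDGF-AA replicate 3, where 30.2% of all responsive genes were blunted.

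The other gene past the adjusted threshold, Gm6741, is a processed pseudogene at 91544239 to 91544985 on chromosome 17 of GRCm39. It had 55, 59 and 75 counts in scramble -PDGF-AA and 0 in each scramble +PDGF-AA sample, at least 25.3-fold lower with 3 counts per library as the floor, a limit that covers counting error only. Its shSrsf3 samples had 122, 87 and 57 counts without and 36, 46 and 12 with ligand. All 717 of its 31-base sequences also occur in transcripts of other genes, foremost Nanp, so its counts depend on how reads were divided between copies and are uncertain. Gm5884, a further blunted pseudogene, had 0 counts in every untreated scramble sample and in replicate 2 of stimulated shSrsf3 cells, and shares 100% of its sequences with other genes, foremost Tom1. Of the 165 blunted genes, 4 (these and the gene models Gm20691 and Gm28052) had no count in all samples of some group.

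The longest list was that of immediate early transcription factors and related early genes. Of 40 tested, 26 rose and 1 fell; 10 of these 27 were blunted, beside 18.6% of all responsive genes, 1 was kept, 1 enlarged and 15 were not resolved. Over all 40 the median log2 fold change was 0.30 in scramble and 0.24 in shSrsf3 cells, and the median interaction was -0.08, with 30 negative. The medians over all tested genes were -0.0096, -0.0044 and 0.0048. The count of blunted members was 8 of 28 responsive ones without scramble -PDGF-AA replicate 3, where 30.2% of all responsive genes were blunted.

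The 4 EGR zinc finger factors, which bind GC-rich sites in growth-responsive promoters, were all blunted. Egr3 was measured at 13.2, 13.5 and 10.9 CPM in scramble -PDGF-AA samples and rose to 59.4, 76.4 and 63.0 CPM with ligand. In shSrsf3 cells it started from the same range (10.8, 13.8 and 15.4 CPM) and reached 36.7, 39.2 and 33.8 CPM. The groups with and without ligand were apart in both lines, and the stimulated shSrsf3 samples lay below all stimulated scramble samples. The log2 fold change was 2.41 ± 0.13 in scramble and 1.48 ± 0.13 in shSrsf3 cells, an interaction of -0.94 (95% interval -1.32 to -0.56, adjusted p = 0.174).

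Egr4 had 0.78, 0.78 and 0.63 CPM in scramble -PDGF-AA and 2.71, 2.98 and 2.72 CPM in scramble +PDGF-AA samples. The shSrsf3 samples lay in between, with 1.10, 1.38 and 1.56 CPM without and 1.68, 2.35 and 1.87 CPM with ligand. Its interaction of -1.39 (95% interval -1.93 to -0.84, adjusted p = 0.162) rests on a mean of 86.7 counts per sample. Egr2 had log2 fold changes of 1.399 and 0.742 in scramble and shSrsf3 cells and an interaction of -0.66.

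Egr1 differed in pattern. It rose from 30.6, 31.6 and 25.8 to 68.5, 93.9 and 75.7 CPM in scramble cells and from 49.9, 51.8 and 58.6 to 114.95, 119.6 and 102.6 CPM in shSrsf3 cells. The level in shSrsf3 cells was thus the higher both without and with ligand. Its interaction on the log2 scale was -0.36 (95% interval -0.69 to -0.03), which missed an unadjusted p of 0.05 without scramble -PDGF-AA replicate 3 (-0.28), scramble +PDGF-AA replicate 2 (-0.23), shSrsf3 -PDGF-AA replicate 3 (-0.30) or shSrsf3 +PDGF-AA replicate 3 (-0.31). It also missed that threshold with edgeR's robust option (-0.36).

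Nr4a1, an orphan nuclear receptor, was measured at 133.5, 127.6 and 83.8 CPM in scramble -PDGF-AA and 292, 405 and 344 CPM in scramble +PDGF-AA samples. Levels in shSrsf3 cells were 303, 351 and 396 CPM before and 664, 672 and 644 CPM after ligand. The unstimulated shSrsf3 samples overlapped the stimulated scramble samples. The log2 fold changes were 1.59 ± 0.16 and 0.92 ± 0.15, with an interaction of -0.68 (95% interval -1.14 to -0.22, adjusted p = 0.733). Arc, an activity-regulated cytoskeletal protein, was similar, with 14.8, 13.8 and 9.71 rising to 33.1, 38.2 and 33.7 CPM in scramble and 27.8, 30.4 and 33.9 rising to 49.2, 52.0 and 53.6 CPM in shSrsf3 cells (interaction -0.72), and it had the same overlap. Klf10, a TGF-β-inducible zinc finger repressor, was blunted by little, with log2 fold changes of 1.39 and 1.22, and that interaction of -0.18 missed an unadjusted p of 0.05 in the 9 samples (-0.13) and without replicate 2 of untreated shSrsf3 cells (-0.14).

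Fos, which encodes the AP-1 subunit c-Fos, was the list's enlarged member and its only member that fell. It had 11.95, 10.5 and 11.5 CPM in scramble -PDGF-AA and 11.0, 11.3 and 10.8 CPM in scramble +PDGF-AA samples, groups that overlapped. Without ligand shSrsf3 samples had 13.6, 14.1 and 15.2 CPM and with ligand 10.8, 9.97 and 7.66 CPM, groups that did not. The log2 fold changes were -0.04 ± 0.09 and -0.58 ± 0.10, and the interaction was -0.55 (95% interval -0.84 to -0.26, adjusted p = 0.495). Its paralog Fosb was not resolved, with log2 fold changes of 0.90 and 1.03, and Junb, a partner of both, with 0.58 and 0.56.

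**Figure D2:**
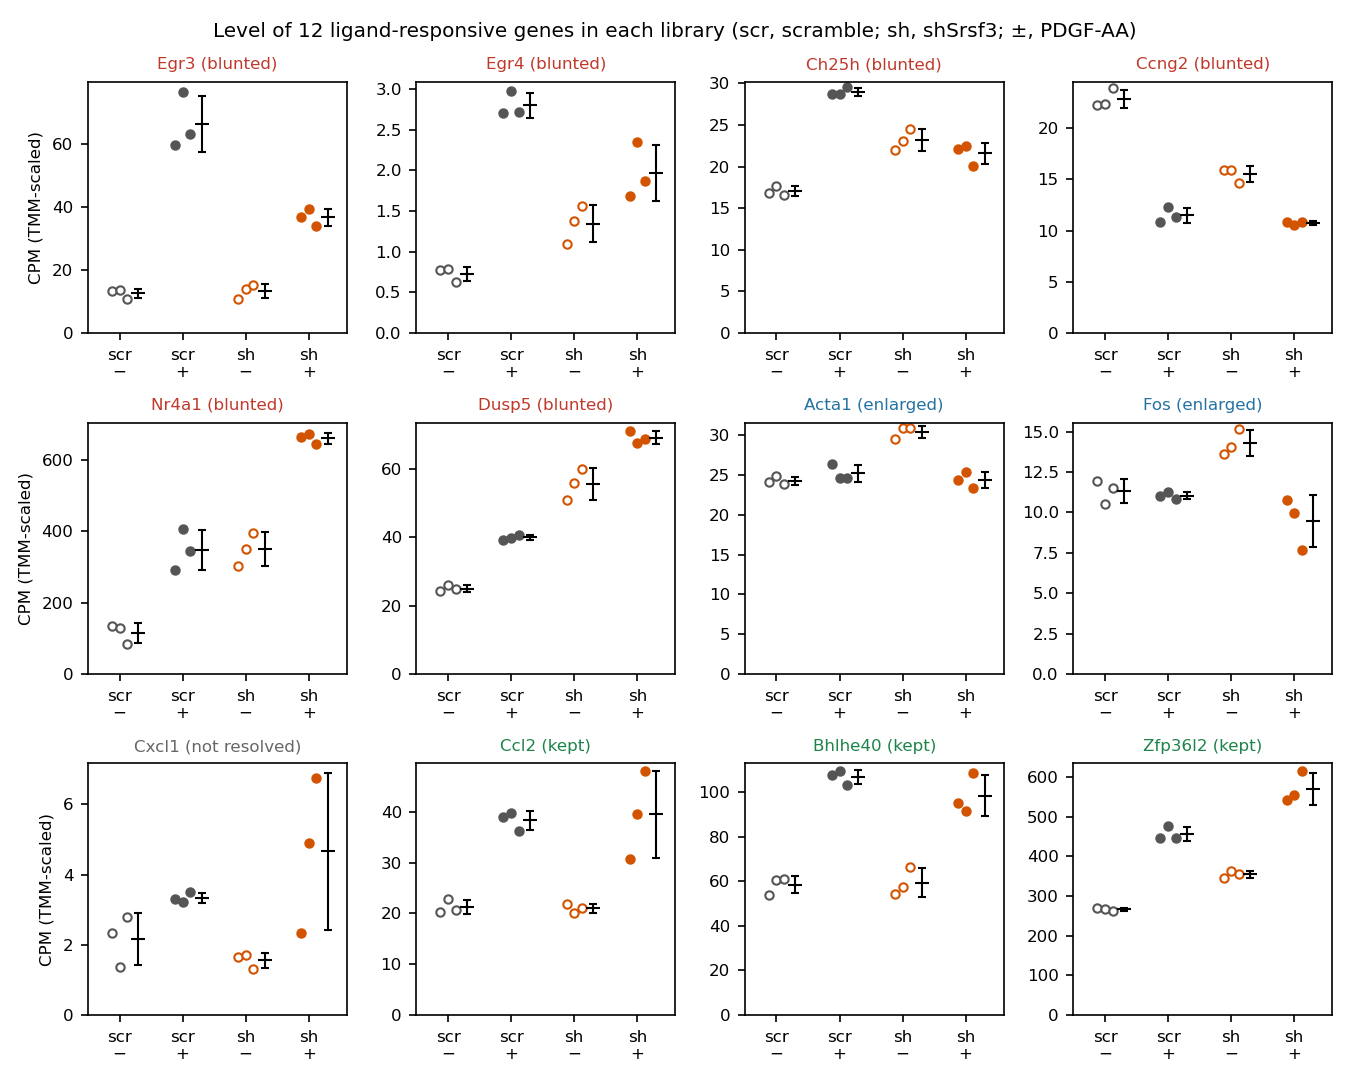
CPM (vertical axes, from 0) of 12 responsive genes in each of the 12 libraries; gray, scramble (scr), and orange, shSrsf3 (sh); open points, without, and filled points, with PDGF-AA; black marks, mean ± SD of 3 samples. In shSrsf3 cells the step from open to filled points was smaller for Egr3 and Egr4, not seen for Ch25h, and of similar size for Ccl2 and Bhlhe40, while Nr4a1 and Dusp5 started from a higher level.

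The next list, headed ERK feedback regulators, held mainly negative regulators of ERK signaling. Of its responsive members Cish and Socs3 act on JAK-STAT signaling and Sprtn is a protease of DNA-protein crosslinks; they are among those not resolved and are included in the counts. Of 25 tested, 12 rose and 1 fell. Of these responsive members, 4 (Dusp5, Dusp6, Errfi1 and Spry4) were blunted, beside 18.6% of all responsive genes. The other 9 were not resolved, with none kept or enlarged. Of the 25 interactions, 20 were negative, with a median of -0.08. Spry4, a Sprouty inhibitor of receptor signaling, rose from 12.1, 12.5 and 12.1 to 20.1, 19.7 and 19.04 CPM in scramble cells. The rise in shSrsf3 cells was from 16.3, 17.9 and 17.1 to 19.3, 22.1 and 20.6 CPM. The stimulated levels overlapped between lines and the unstimulated levels did not. Its interaction was -0.41 (95% interval -0.58 to -0.24, adjusted p = 0.174).

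Dusp5, a nuclear phosphatase of ERK, had 24.1, 26.02 and 24.7 CPM without and 39.2, 39.8 and 40.6 CPM with ligand in scramble cells, and 50.7, 55.8 and 59.8 CPM without and 71.1, 67.5 and 68.6 CPM with ligand in shSrsf3 cells. Even without ligand the shSrsf3 samples were above every stimulated scramble sample. The log2 fold changes were 0.68 and 0.32, with an interaction of -0.36 (95% interval -0.52 to -0.19). Errfi1, an inhibitor of EGF receptor family kinases, had log2 fold changes of 0.80 and 0.19, and Dusp6, a cytoplasmic ERK phosphatase, of 0.33 and 0.13. Dusp4, a further nuclear phosphatase, was not resolved, with 0.55 and 0.35. Blunted members of this list numbered 4 of 14 responsive ones without scramble -PDGF-AA replicate 3, where 30.2% of all responsive genes were blunted.

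Promoter sequences are shown for 3 blunted genes and 1 enlarged gene whose first 250 bases upstream hold a known growth factor-responsive motif. They were taken from RefSeq on GRCm38.p6, a build other than that of the counts, and each shows the 150 bases before an annotated start, 5′ to 3′ on the gene's strand, with the motif in capitals. Capitals mark the cAMP response element (CRE, TGACGTCA) in Ch25h and the CArG box, the site of serum response factor, in the other 3.
Ch25h (chr19:34475149-34475298, minus strand): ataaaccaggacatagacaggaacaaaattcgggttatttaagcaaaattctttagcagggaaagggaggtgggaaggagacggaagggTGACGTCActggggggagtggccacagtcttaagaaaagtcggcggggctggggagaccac
Dusp5 (chr19:53528995-53529144, plus strand): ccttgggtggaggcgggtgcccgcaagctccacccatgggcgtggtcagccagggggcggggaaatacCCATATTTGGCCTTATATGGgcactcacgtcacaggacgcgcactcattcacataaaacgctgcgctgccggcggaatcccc
Egr2 (chr10:67537720-67537869, plus strand): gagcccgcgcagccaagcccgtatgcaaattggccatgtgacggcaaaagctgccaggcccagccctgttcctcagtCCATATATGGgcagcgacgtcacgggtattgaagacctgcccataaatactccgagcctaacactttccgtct
Acta1 (chr8:123894776-123894925, minus strand): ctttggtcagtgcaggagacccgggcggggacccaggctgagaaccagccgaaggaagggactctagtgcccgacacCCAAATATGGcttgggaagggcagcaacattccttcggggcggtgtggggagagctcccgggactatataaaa
Dusp5 holds 2 adjoining CArG boxes, and Egr2 is shown at 1 of its annotated starts. The letters searched for AP-1 and CRE do not match each other's sites. Of the 92 blunted genes that rose, 68 had a promoter in the RefSeq table; a CRE was found on either strand in 7 of these (10.3%), against 5.8% of all 345 responsive genes that rose and 3.09% of the 10729 tested genes with a promoter. A CArG box was found in 3 of the 68 (4.41%), against 2.32% and 1.49%. The EGR site GCGNGGGCG was found in 7 (10.3%), against 13% and 10.4%, and the AP-1 site TGANTCA in 4 (5.88%), against 5.22% and 5.46%. Of the 46 blunted genes that fell and had a promoter, the FoxO site TGTTTAC was found in 0, against 4.2% of the 333 responsive genes that fell and 2.56% of the tested genes. Letters in a window of this length are a description and not evidence of binding.

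The secreted cytokines and growth factors divided within the list. Of 34 tested, 12 rose and 0 fell. Of the 12, 6 were blunted, beside 18.6% of all responsive genes, among them Csf1, Ereg, Hbegf, Plau and Ptgs2. Ccl2 and Ccl7 were kept and 4 were not resolved. Blunted members were 6 of 12 responsive ones without scramble -PDGF-AA replicate 3, where 30.2% of all responsive genes were blunted, and 2 were kept. With libraries thinned to equal depth 1 was kept. The median interaction over the 34 was -0.0080, with 18 negative. Ereg, a ligand of the EGF receptor, had 37.0, 33.4 and 32.2 CPM without and 55.6, 54.8 and 58.4 CPM with ligand in scramble cells, and 61.7, 65.3 and 67.2 CPM without and 83.4, 82.3 and 93.5 CPM with ligand in shSrsf3 cells. The lines differed at both conditions without overlap. Its log2 fold changes were 0.72 and 0.42, with an interaction of -0.30 (95% interval -0.49 to -0.12). Plau, the urokinase plasminogen activator, had log2 fold changes of 0.47 and 0.04. Vegfa, an angiogenic growth factor, was not resolved, with 0.44 and 0.39, as was Lif, with 0.69 in each line.

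Ccl2 and Ccl7 are neighboring monocyte chemokine genes on chromosome 11. Ccl2 rose from 20.2, 22.8 and 20.7 to 39.1, 39.7 and 36.2 CPM in scramble cells and from 21.8, 20.1 and 21.1 to 30.8, 39.7 and 48.0 CPM in shSrsf3 cells. The groups with and without ligand did not overlap in either line, while between lines they overlapped at both conditions. The log2 fold changes were 0.85 ± 0.11 and 0.91 ± 0.11, and the interaction was 0.06 (95% interval -0.29 to 0.40, adjusted p = 0.960). Ccl7 had log2 fold changes of 0.75 and 0.82 and an interaction of 0.07 (95% interval -0.25 to 0.39). Without shSrsf3 +PDGF-AA replicate 3, the highest sample of its group for both, the interactions were -0.11 and -0.09, and without replicate 1 of that group 0.21 and 0.20.

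Of 27 FoxO target genes tested, 10 fell and 1 rose with ligand. Of those that fell, 4 (Ccng2, Cdkn1b, Fbxo32 and Foxo1) were blunted, with a smaller fall in shSrsf3 cells, beside 18.6% of all responsive genes. The other 7 responsive genes of the list were not resolved. The interaction was negative for 7 of the 27, with a median of 0.07. Ccng2, an atypical cyclin associated with growth arrest, fell from 22.3, 22.4 and 23.9 to 10.8, 12.3 and 11.4 CPM in scramble cells and from 15.9, 15.9 and 14.7 to 10.8, 10.5 and 10.9 CPM in shSrsf3 cells. The stimulated samples of both lines overlapped, whereas the unstimulated shSrsf3 samples lay below the unstimulated scramble samples. The log2 fold changes were -0.99 ± 0.06 and -0.53 ± 0.06, and the interaction was 0.46 (95% interval 0.28 to 0.64, adjusted p = 0.144).

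Cdkn1b, the cyclin-dependent kinase inhibitor p27, had log2 fold changes of -0.32 and -0.12 in scramble and shSrsf3 cells, Fbxo32, the ubiquitin ligase atrogin-1, of -0.54 and -0.24, and Foxo1 itself of -0.41 and -0.12. Irs2, an adaptor of insulin and IGF receptors, was not resolved but had nearly the same values in both lines, -0.35 and -0.34, with an interaction of 0.01 (95% interval -0.16 to 0.19). Pik3ip1, an inhibitor of PI3K, had -0.51 and -0.33. The blunted members numbered 3 of 13 responsive ones, with 1 enlarged, without scramble -PDGF-AA replicate 3. In that fit 30.2% of all responsive genes were blunted and 2.1% enlarged.

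Of the receptor and PI3K pathway itself, 2 of 31 tested genes were responsive, and both (Pdgfra and Pik3ip1) fell and were not resolved. The median interaction over the 31 was -0.01. Pdgfra, which encodes the receptor, had 71.5, 69.3 and 81.0 CPM in scramble -PDGF-AA and 60.4, 59.0 and 60.3 CPM in scramble +PDGF-AA samples. The shSrsf3 samples had 51.2, 49.4 and 53.4 CPM without and 47.8, 47.6 and 44.3 CPM with ligand, all below the scramble samples. The log2 fold changes were -0.30 and -0.14, and the interaction was 0.16 (95% interval -0.01 to 0.34). That value was 0.29 in the 9 samples and 0.08 without scramble -PDGF-AA replicate 3. Its unadjusted p was under 0.05 with no low-count filter (0.16), with edgeR's robust option (0.16), with a term for low mapping rate (0.20) and with libraries thinned to equal depth (0.18). The same held without scramble -PDGF-AA replicate 2 (0.21) or shSrsf3 +PDGF-AA replicate 3 (0.20).

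Of 28 YAP and TEAD target genes, 4 rose and 0 fell. Dlc1, a RhoGAP, F3, tissue factor, and Nuak2, an AMPK-related kinase, were blunted, beside 18.6% of all responsive genes. Gadd45b was not resolved. F3 had log2 fold changes of 0.38 and 0.02 and Nuak2 of 0.78 and 0.57. The blunted call of Nuak2 was lost in 6 of 12 leave-one-out fits, with interactions between -0.28 and -0.13 over the 12. That call was also lost with limma-voom (-0.19) and with a replicate block (-0.21). The median interaction over the 28 was -0.05. Without scramble -PDGF-AA replicate 3, 4 of 6 responsive YAP and TEAD target genes were blunted and 1 enlarged. Of the 29 Srf and contractile actin genes tested, a list that does not hold Acta1 (responsive and enlarged, counted here among skeletal muscle markers), 0 were responsive (median log2 fold changes -0.0055 and -0.04, median interaction -0.05). Without scramble -PDGF-AA replicate 3, 7 of them were responsive, with 4 blunted. In that fit 30.2% of all responsive genes were blunted. Of 34 early endosome and Vps34 complex genes, 1 rose and 2 fell; Wdr81, a regulator of endosomal PI3P, was blunted (log2 fold changes -0.30 and -0.12), while Rin1, a Rab5 exchange factor, and Atg14, a subunit of the autophagy complex of Vps34, were not resolved, and the median interaction over the 34 was 0.02. The call of Wdr81 was lost in 6 of 12 leave-one-out fits (0.13 to 0.23). Of 13 SR splicing factors, Srsf7 rose and was blunted (0.26 and 0.09), a call that was lost in 9 of 12 leave-one-out fits (-0.26 to -0.14). The Srsf7 call was also lost with libraries thinned to equal depth (-0.14) and with scaling by library size only (-0.17). In the 9 samples its interaction was -0.05. The median interaction over the 13 was 0.01.

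**Figure D3:**
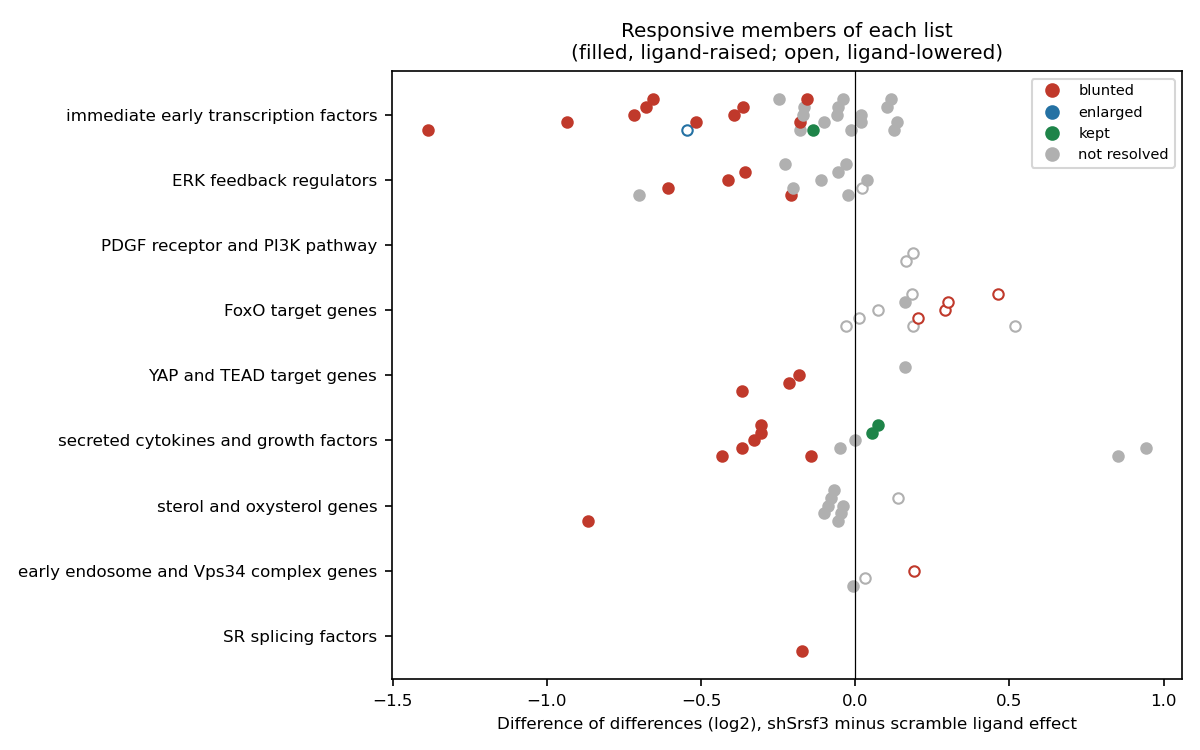
Difference of differences (log2, horizontal axis) of the responsive members of 9 gene lists, 1 point per gene, filled where the gene rose and open where it fell with ligand, colored by class; vertical offsets within a list carry no value. The 10 blunted immediate early genes lie to the left of 0 and the 4 blunted FoxO target genes, which fell with ligand, to the right.

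Several genes outside these lists had interactions with small unadjusted p. Tnfrsf12a, the receptor of the cytokine TWEAK, rose from 95.7, 96.4 and 96.6 to 136, 124.5 and 129 CPM in scramble cells, and it had 138.5, 143.5 and 146 CPM without and 158, 150.5 and 155 CPM with ligand in shSrsf3 cells. The groups were apart in both lines, with log2 fold changes of 0.43 ± 0.04 and 0.11 ± 0.04 and an interaction of -0.32 (adjusted p = 0.137). Pnrc1, a nuclear receptor coactivator, fell from 43.7, 46.3 and 42.2 to 31.4, 29.3 and 31.1 CPM in scramble cells and had 30.6, 30.7 and 29.9 CPM without and 26.1, 26.05 and 27.5 CPM with ligand in shSrsf3 cells. Its unstimulated shSrsf3 samples overlapped the stimulated scramble samples, and its interaction was 0.33 (adjusted p = 0.174).

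Ckb, the brain-type creatine kinase, rose from 8.99, 8.23 and 8.93 to 15.6, 15.5 and 15.8 CPM in scramble cells and from 26.8, 25.4 and 27.3 to 31.6, 32.9 and 37.4 CPM in shSrsf3 cells. Every shSrsf3 sample was above every scramble sample, and the interaction was -0.48 (adjusted p = 0.144). Of its 31-base sequences 13.6% are shared with other genes. Foxs1, a forkhead factor, had log2 fold changes of 0.96 and 0.22 and a mean count of 106, and its interaction of -0.74 was -0.48 in the 9 samples, where the unadjusted p was over 0.05. Kcnf1, a modulatory potassium channel subunit, was not responsive by the mean of both lines (0.05), with a log2 fold change of 0.24 in scramble and -0.13 in shSrsf3 cells. The values were 24.7, 23.6 and 21.2 against 28.6, 26.5 and 26.6 CPM in scramble and 38.7, 39.6 and 39.8 against 35.9, 35.8 and 36.0 CPM in shSrsf3 cells. The groups did not overlap in either line, in opposite directions, and the interaction was -0.37 (adjusted p = 0.181).

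Among the 14 enlarged responses, 10 fell and 4 rose with ligand. Their share of the responsive genes, 1.58%, was near the 1.61% over all tested genes, so the enlarged genes, Fos included, are given as single values and their number is not a result. Acta1, skeletal muscle α-actin, had 24.1, 24.9 and 23.8 CPM without and 26.3, 24.6 and 24.6 CPM with ligand in scramble cells. It fell in shSrsf3 cells from 29.5, 30.9 and 30.8 to 24.4, 25.4 and 23.3 CPM. Unstimulated shSrsf3 samples were above all scramble samples and stimulated ones overlapped them, and the interaction was -0.37 (95% interval -0.51 to -0.24, adjusted p = 0.137). Acta1 is the most abundant of the 8 skeletal muscle markers, and Myod1 and Ckm of that list had no count; the part of such cells in the result was not tested. Lims2, a focal adhesion adaptor, had log2 fold changes of -0.09 in scramble and -0.34 in shSrsf3 cells.

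Klf9, a Krüppel-like repressor, and Bhlhe41, a circadian repressor, were enlarged in the upward direction, with 0.09 and 0.35 and with 0.10 and 0.35. The enlarged call was lost in 9 of 12 leave-one-out fits for Klf9 and in 5 of 12 for Bhlhe41, and the interaction of Klf9 was 0.07 in the 9 samples. The call of Klf9 was also lost with limma-voom (0.25), edgeR's robust option (0.26) and a replicate block (0.26). That of Bhlhe41 was also lost with DESeq2 (0.25), with no low-count filter (0.24) and with libraries thinned to equal depth (0.18). Cxcl1, a neutrophil chemokine, and Areg, an EGF receptor ligand, had larger log2 fold changes in shSrsf3 cells (0.61 and 1.55, and 0.88 and 1.73) but were not resolved. The shSrsf3 +PDGF-AA samples of Cxcl1 ranged from 2.325 to 6.76 CPM, against 3.21 to 3.49 CPM in scramble +PDGF-AA samples. Its interaction of 0.94 had a 95% interval of -0.0027 to 1.89 and was 1.26 in the 9 samples, where the unadjusted p was under 0.05. Without replicate 3 of stimulated shSrsf3 cells it was 0.58, and without replicate 1 of that group or replicate 2 of untreated scramble cells it was 1.28 and 1.19, with an unadjusted p under 0.05. Mrpl1, a mitochondrial ribosomal protein gene, had a wide interaction in the blunted direction, 1.08 (95% interval -0.01 to 2.17), which was 0.32 in the 9 samples. It had an unadjusted p under 0.05 in 7 of 23 refits (1.06 to 1.38), 5 of them leave-one-out fits (without replicates 1 or 3 of untreated scramble, 1 of stimulated scramble, 2 of untreated or 2 of stimulated shSrsf3 cells), and was 0.70 without replicate 2 of untreated scramble cells.

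The 6 kept responses were all upward. Beside Ccl2 and Ccl7 they were those of Bhlhe40, Zfp36l2, Slc30a1 and Usp36. Bhlhe40, a transcriptional repressor of the clock and of hypoxia responses, rose from 54.1, 60.6 and 60.9 to 108, 109.5 and 103.5 CPM in scramble and from 54.2, 57.6 and 66.6 to 95.1, 91.7 and 109 CPM in shSrsf3 cells. The lines overlapped at both conditions. Its log2 fold changes were 0.87 and 0.73, with an interaction of -0.14 (95% interval -0.37 to 0.10). Leaving out replicate 3 of untreated or of stimulated shSrsf3 cells gave -0.05 and -0.22, and leaving out replicate 1 of untreated scramble or replicate 2 of stimulated shSrsf3 cells gave -0.09 in each case. Zfp36l2, which promotes decay of AU-rich mRNAs, rose from 269, 268 and 262.5 to 446, 476 and 447 CPM in scramble and from 346, 362 and 356 to 541, 554 and 616 CPM in shSrsf3 cells. The level was higher in every shSrsf3 sample, yet the log2 fold changes were 0.78 and 0.69, with an interaction of -0.09 (95% interval -0.23 to 0.05). Without replicate 3 of stimulated shSrsf3 cells it was -0.15, with an unadjusted p under 0.05. Slc30a1, a zinc exporter, had 0.77 and 0.64, and its interaction of -0.12 was -0.19 without shSrsf3 -PDGF-AA replicate 1, where it too had an unadjusted p under 0.05. Of the 6, 4 were kept again in the 9 samples, Ccl2 and Ccl7 being those lost, and 5 without scramble -PDGF-AA replicate 3.

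**Figure D4:**
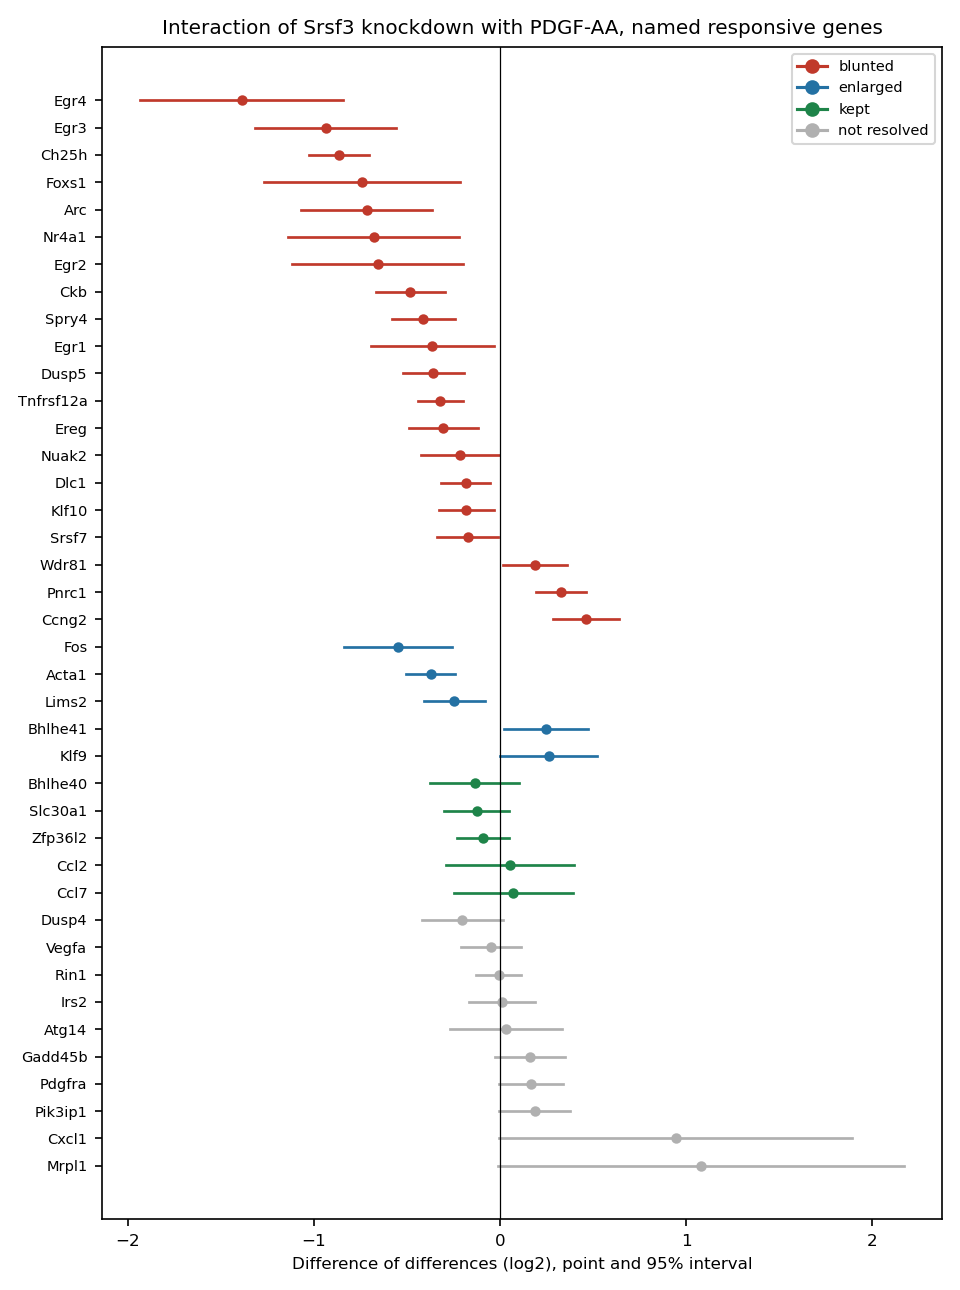
Difference of differences (log2, horizontal axis; shSrsf3 minus scramble ligand effect) of 40 responsive genes, with its 95% interval, colored by class. The intervals of the blunted and enlarged genes exclude 0 by definition; those of Cxcl1 and Mrpl1 are the widest and reach just past 0.

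For the 92 blunted genes that rose, the median log2 difference between shSrsf3 and scramble samples was 0.31 without ligand and 0.00021 with ligand, and 72 of them had the higher mean in unstimulated shSrsf3 cells. For the 73 blunted genes that fell, the medians were -0.30 and 0.0073, and 64 had the lower mean in unstimulated shSrsf3 cells. Over all responsive genes the medians were 0.10 and 0.02 for genes that rose and -0.23 and -0.13 for genes that fell, and over all tested genes -0.02 and -0.01. Of all 450 responsive genes that rose, 290 had the higher mean in unstimulated shSrsf3 cells. Of all 437 that fell, 349 had the lower mean there. Among all tested genes 7182 were higher and 7855 lower. The unstimulated samples enter both the interaction and the difference between unstimulated lines, so these values are set side by side as a description. Egr3 was a blunted gene without such a difference (0.08 without and -0.86 with ligand). Klf10 was lower in shSrsf3 cells at both conditions (-0.32 and -0.50), while Dusp5 (1.15 and 0.79) and Nr4a1 (1.61 and 0.93) were higher in shSrsf3 cells at both conditions.

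The result for a gene with unequal starting levels depends on whether a response is read as a ratio or as a number of transcripts. In CPM, Nr4a1 rose by 232 in scramble and 310 in shSrsf3 cells, Egr1 by 50.1 and 58.9 and Ckb by 6.90 and 7.48, so that the means stood in the opposite order to the log2 scale. The difference of these changes was 78.3 ± 45.8 CPM (SE) for Nr4a1, 8.88 ± 9.63 for Egr1 and 0.58 ± 1.86 for Ckb, and those of Egr1 and Ckb were smaller than their SE. This held for 5 of the 92 blunted genes that rose (Nr4a1, Egr1, Ckb, Nipal1 and S1pr3) and for 0 of the 73 that fell. For 11 of the 92 the CPM change in shSrsf3 cells was at least 0.75 of that in scramble cells, among them Arc (22.2 and 20.9), Dusp5 (14.9 and 13.6) and Ereg (22.1 and 21.7). For most blunted genes both scales gave the same order, with a median ratio of CPM changes of 0.39 for genes that rose and 0.26 for genes that fell. Egr3 rose by 53.7 and 23.3 CPM, and Ch25h by 11.9 CPM in scramble cells with a change of -1.60 CPM in shSrsf3 cells.

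**Figure D5:**
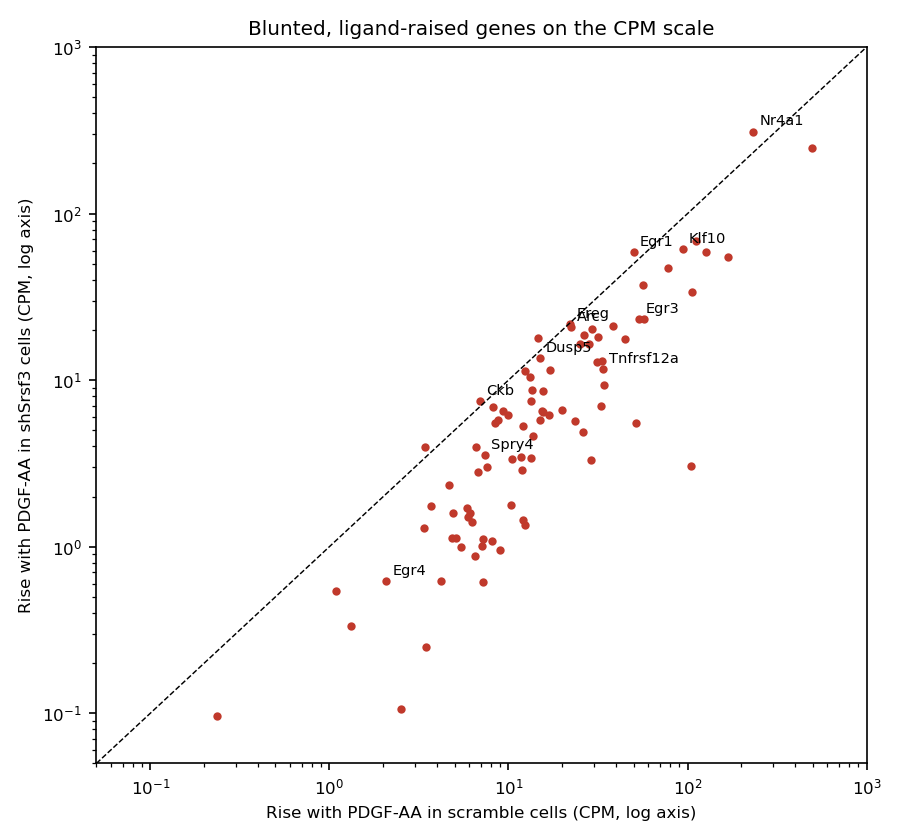
Rise with PDGF-AA in CPM in scramble cells (horizontal axis) and in shSrsf3 cells (vertical axis), both log axes, for 89 of the 92 blunted genes that rose; 3 with no rise in mean CPM in shSrsf3 cells, Ch25h among them, cannot be drawn. Points below the dashed line of equal change rose by less in shSrsf3 cells, and Nr4a1, Egr1 and Ckb lie above it.

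Some responses lay close to a threshold. Foxo1 (unadjusted p = 0.0451), Tnfaip3 (0.0456) and S1pr3 (0.0492) were just inside the blunted class, and Cxcl1 (0.0506), Mrpl1 (0.0522), Jun (0.0558) and Pdgfra (0.0594) just outside a call. The median half-width of the 95% interval was 0.18 over the responsive genes, compared with a median ligand effect, taken in the direction of response, of 0.25 in scramble and 0.18 in shSrsf3 cells, so most single responses could not be placed at this depth and replication.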

How the data were processed

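Poly(A) RNA-seq of 12 samples (3 replicates in each of 4 groups, assigned by their labels) was analyzed. The authors trimmed reads with BBDuk, quantified transcripts with Salmon 1.4.0 on GENCODE M26 (GRCm39), and deposited expected counts per gene symbol from tximport, whose scaling option is not given in the sources used here. Values were rounded to whole counts and filtered (edgeR 4.0.16 filterByExpr, minimum count 10), leaving 15037 genes. After TMM scaling, the edgeR quasi-likelihood test was fitted to all 12 samples with a mean per group, and p was adjusted by Benjamini-Hochberg over all genes tested. The main fit had no replicate block, since deviations from the group mean correlated above 0.1 in only 4 of 18 same-numbered pairs of samples. Scramble samples without and with ligand had correlations of -0.38, 0.44 and 0.34 for replicates 1, 2 and 3. Scramble pairs of unlike number ranged from -0.61 to 0.56. Scramble pairs in which both or neither sample was among the 3 lowest mapping rates ranged from 0.34 to 0.56. Mixed pairs ranged from -0.61 to -0.22. The part of the mapping rate in this spread was not tested. The test was also run on simulated counts. DESeq2 1.42.0, limma 3.58.1 and R 4.3.3 gave alternatives. CPM values are TMM-scaled counts, except the marker sums, which are scaled to the library total only. Intervals are 95% intervals of the fitted contrast. Positions and 31-base sharing came from GENCODE M39.

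Named genes were Srsf3 and Pdgfra, those with an adjusted interaction p of 0.05 or less, at a mean count of 50 or more the 10 with the smallest interaction p, the 10 with the largest mean ligand effect and 5 of each called class by size, and up to 3 responsive genes per list. Some genes that the rule names are not reported here. Others were named after their values were seen. Classes, members and lists were chosen with earlier results of these data known.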

Additional observations from a re-analysis of the deposited data

Results flagged for a closer look

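Ch25h and Gm6741 were flagged because the ligand's effect differed between scramble and shSrsf3 cells by the interaction term itself at an adjusted p of 0.05 or less (edgeR). The interaction was -0.8653 on the log2 scale for Ch25h, with no overlap between scramble groups and overlap between shSrsf3 groups. The fitted interaction of 8.411 for Gm6741 depends on the prior count given to the 3 scramble +PDGF-AA samples with 0 counts and is no bound. Groups of 3 samples were too small to test single samples as outliers. In the leave-one-out fits the interaction lay between -0.91 and -0.82 for Ch25h and between 8.03 and 8.81 for Gm6741.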

How the results depend on the processing

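At an adjusted p of 0.05 the interaction was called for 2 genes, against 26 with DESeq2, 218 with no low-count filter, 1 at a mean count of at least 50, 8 with a term for low mapping rate, 16 in the 9 samples without the lowest mapping rates, 1 with libraries thinned to equal depth, 1 to 6 in leave-one-out fits and 833 at an unadjusted p. Ch25h was called in each of the 23 refits of the model. Ligand-responsive genes numbered 1372 with no filter and 521 to 1286 in leave-one-out fits. Blunted responses numbered 336 with no filter, 315 in the 9 samples, 22 when chosen in shSrsf3 cells, 66 at an interaction p of 0.01, 72 at a mean count of 50 and a mean effect of 0.25, and 96 to 389 in leave-one-out fits. Enlarged responses numbered 53 with no filter, 23 with the mapping term, 7 in the 9 samples, 0 and 8 when chosen in scramble or shSrsf3 cells, 4 at a p of 0.01, 2 at the mean count and effect above, and 6 to 27 in leave-one-out fits. Kept responses numbered 20 with no filter, 10 with limma-voom, 14 with the mapping term, 45 with an interval within 0.75 of the effect, and 3 to 14 in leave-one-out fits. The blunted share of responsive genes was 14 to 30.2% and the enlarged share 0.651 to 3.86% over the 23 refits.

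Read in CPM, the interaction was positive for Ckb (0.58 ± 1.86, SE), Egr1 (8.88 ± 9.63) and Nr4a1 (78.3 ± 45.8). Replicate numbers did not pair the samples throughout (correlations -0.38 to 0.44 between same-numbered samples). A fit with the replicate as a block called 1 interaction gene, 914 responsive genes, 171 blunted, 15 enlarged and 12 kept responses. The cause of these changes was not tested. With 3 samples a group, 79.1% of responses were not resolved, and leave-one-out fits leave 2 samples in the group concerned.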
